A study of Mus musculus with 20 samples.

Results

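The keratin genes of mouse skin and hair were followed on 20 microarrays of UVB-induced melanoma. Members were all array rows whose platform symbol is Krt, digits and at most 1 trailing letter, with the row of highest mean kept for each symbol, so that the keratin-associated proteins (Krtap) were not among them. The rule found 49 of 19504 named genes, 27 on chromosome 11 and 22 on chromosome 15. Of these, 48 are annotated as protein coding and Krt74 as a transcribed pseudogene. By the part of skin or hair in which they are known, 3 belong to the basal layer and outer root sheath, 8 to the suprabasal and cornifying layers, 2 to injured epidermis, 9 to the companion layer and inner root sheath, 12 to the hair shaft, 6 to simple epithelia and 8 to other epithelia, while Krt88 was in no list. Krt6a, Krt6b, Krt81, Krt83, Krt85 and Krt87 carried no name on the platform and were not analysed here.

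The line called B is Tyr::CreERT2;BrafCA/CA and the line called B;p38α is Tyr::CreERT2;BrafCA/CA;p38αlox/lox. In both, 4-hydroxytamoxifen (5 mg/ml) was put on the skin on postnatal day 2.5 and again on day 3.5, which switches on the oncogenic Braf allele, and the mice received UVB once (6.24 kJ/m2) on day 3.5. B;p38α tumors were additionally designed to lose the stress kinase p38α in the recombined cells. Since the tyrosinase promoter drives Cre in melanocytes, both recombination events were designed to occur there and not in keratinocytes, the cells that make most skin keratins. Where recombination took place was not tested here. At endpoint size 5 B and 3 B;p38α tumors were profiled whole. Others were dissociated, and magnetic beads against CD45, a surface protein of leukocytes, split them into a CD45+ fraction and a CD45- fraction of tumor and stroma, each with 3 samples per genotype. The labels give no age at endpoint.

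Keratins are the intermediate filament proteins of epithelial cells, and a filament forms only from pairs of an acidic type I and a basic type II chain, whose genes lie in separate clusters. Each layer of the epidermis and the hair follicle makes its own pairs: dividing basal cells make Krt5 with Krt14, cells that leave the basal layer change to Krt1 with Krt10, the inner root sheath that moulds the growing hair makes Krt25 to Krt28 with Krt71 to Krt74, and the hair shaft makes cysteine-rich hair keratins that are crosslinked with Krtap proteins. Melanocytes and leukocytes are not epithelial cells, and skin keratins are widely used as markers of keratinocytes and their layers.

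Promoter sequences were available from RefSeq (GRCm38.p6) for 36 of the 49 members, in 37 windows of 300 bases, from 250 before to 50 after the start of the gene. The 5 shown here belong to genes described in detail, 2 of the inner root sheath, 2 of the hair shaft and 1 of the basal layer. Only the 250 bases before the start are shown, 5′ to 3′ on the strand of the gene, and capitals mark the letters TATAAA, the core of a TATA box, and CTTTGAAG, letters bound by LEF and TCF factors of Wnt signalling in hair keratin promoters. They are Krt25 at chr11:99322952-99323201 (minus strand), Krt71 at chr15:101743098-101743347 (minus), Krt31 at chr11:100050552-100050801 (minus), Krt34 at chr11:100041555-100041804 (minus) and Krt5 at chr15:101712906-101713155 (minus).
Krt25: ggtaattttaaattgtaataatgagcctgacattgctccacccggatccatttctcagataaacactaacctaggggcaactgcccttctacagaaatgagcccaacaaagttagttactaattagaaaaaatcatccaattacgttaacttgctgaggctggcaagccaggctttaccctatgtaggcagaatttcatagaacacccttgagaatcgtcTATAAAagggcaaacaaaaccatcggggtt
Krt71: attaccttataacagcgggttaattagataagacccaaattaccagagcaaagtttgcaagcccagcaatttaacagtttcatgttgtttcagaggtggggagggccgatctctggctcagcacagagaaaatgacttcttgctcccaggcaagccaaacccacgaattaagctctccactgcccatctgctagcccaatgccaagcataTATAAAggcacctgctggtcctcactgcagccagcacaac
Krt31: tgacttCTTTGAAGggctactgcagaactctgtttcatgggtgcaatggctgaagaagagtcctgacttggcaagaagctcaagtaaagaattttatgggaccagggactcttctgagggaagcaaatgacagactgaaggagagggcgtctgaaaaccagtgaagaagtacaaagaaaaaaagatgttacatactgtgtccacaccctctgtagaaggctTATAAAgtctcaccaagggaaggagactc
Krt34: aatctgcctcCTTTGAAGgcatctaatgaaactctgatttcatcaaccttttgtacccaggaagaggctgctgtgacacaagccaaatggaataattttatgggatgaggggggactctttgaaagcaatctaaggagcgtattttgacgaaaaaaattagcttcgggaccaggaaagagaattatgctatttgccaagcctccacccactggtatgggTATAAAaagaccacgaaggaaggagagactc
Krt5: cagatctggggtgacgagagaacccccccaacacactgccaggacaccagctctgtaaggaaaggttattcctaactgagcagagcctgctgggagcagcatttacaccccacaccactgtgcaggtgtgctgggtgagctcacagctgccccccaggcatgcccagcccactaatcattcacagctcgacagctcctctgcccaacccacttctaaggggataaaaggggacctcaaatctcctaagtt
TATAAA lies 30 bases before the start of Krt25, 40 before that of Krt71, 29 before that of Krt31 and 31 before that of Krt34. CTTTGAAG lies near the far end of the window in both hair shaft genes, 244 bases before the start of Krt31 and 240 before that of Krt34, and neither motif is in the window of Krt5. Searched on both strands, TATAAA was in 19 of 37 keratin windows (51.4%) and in 13.6% of 32851 promoter windows of all genes. By role it was in 7 of 8 windows of the companion layer and inner root sheath (87.5%), 6 of 9 of the hair shaft (66.7%), 2 of 6 suprabasal windows and 0 of 2 basal windows. CTTTGAAG was in 5 of 37 keratin windows (13.5%) and in 1.66% of all windows. All 5 belong to the hair shaft (Krt31, Krt32, Krt33b, Krt34 and Krt39). Neighbouring keratin genes arose by duplication, so their windows are related and not independent, and a match describes letters in a window and not a site in use.

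Array medians lay between 6.75 and 7.02 on the log2 scale, and the number of arrays limits the precision of every difference. Samples are titled as biological replicates, but no label ties them to separate mice. A p-value here therefore sets a difference against the scatter of these samples, not of mice, and part of that scatter may be technical. Mapk14, the gene of p38α, had means of 10.06 ± 0.11 (SD, n = 5) and 9.79 ± 0.20 (n = 3) in B and B;p38α complete tumors, a difference of -0.27 (SE 0.15) that did not pass (limma, adjusted p = 0.807). Mapk14 did not pass in sorted cells either, at -0.18 in CD45+ and -0.16 in CD45- cells. B CD45- replicate 1 had the narrowest spread of values (interquartile range 2.95, others 3.41 to 3.89), and for the keratins B complete replicate 1 stood apart, as described next. The results that rest on it are given with and without it.

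B complete replicate 1 stood above the other arrays for many of the keratins. Its value was the highest of all 20 arrays for 28 of 49 keratins (57.1%), and for 5.14% of all genes. It exceeded the next highest array by at least 2 on the log2 scale for 22 keratins (44.9%), and for 121 of all 19504 genes (0.62%). Most keratin values were low: 22 of the 49 were above the median gene of the array on no array, and 17 on B complete replicate 1 only. These are counts and not tests, since the array was singled out after its values were seen, as were the other genes named beside the keratins.

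**Figure D1:**
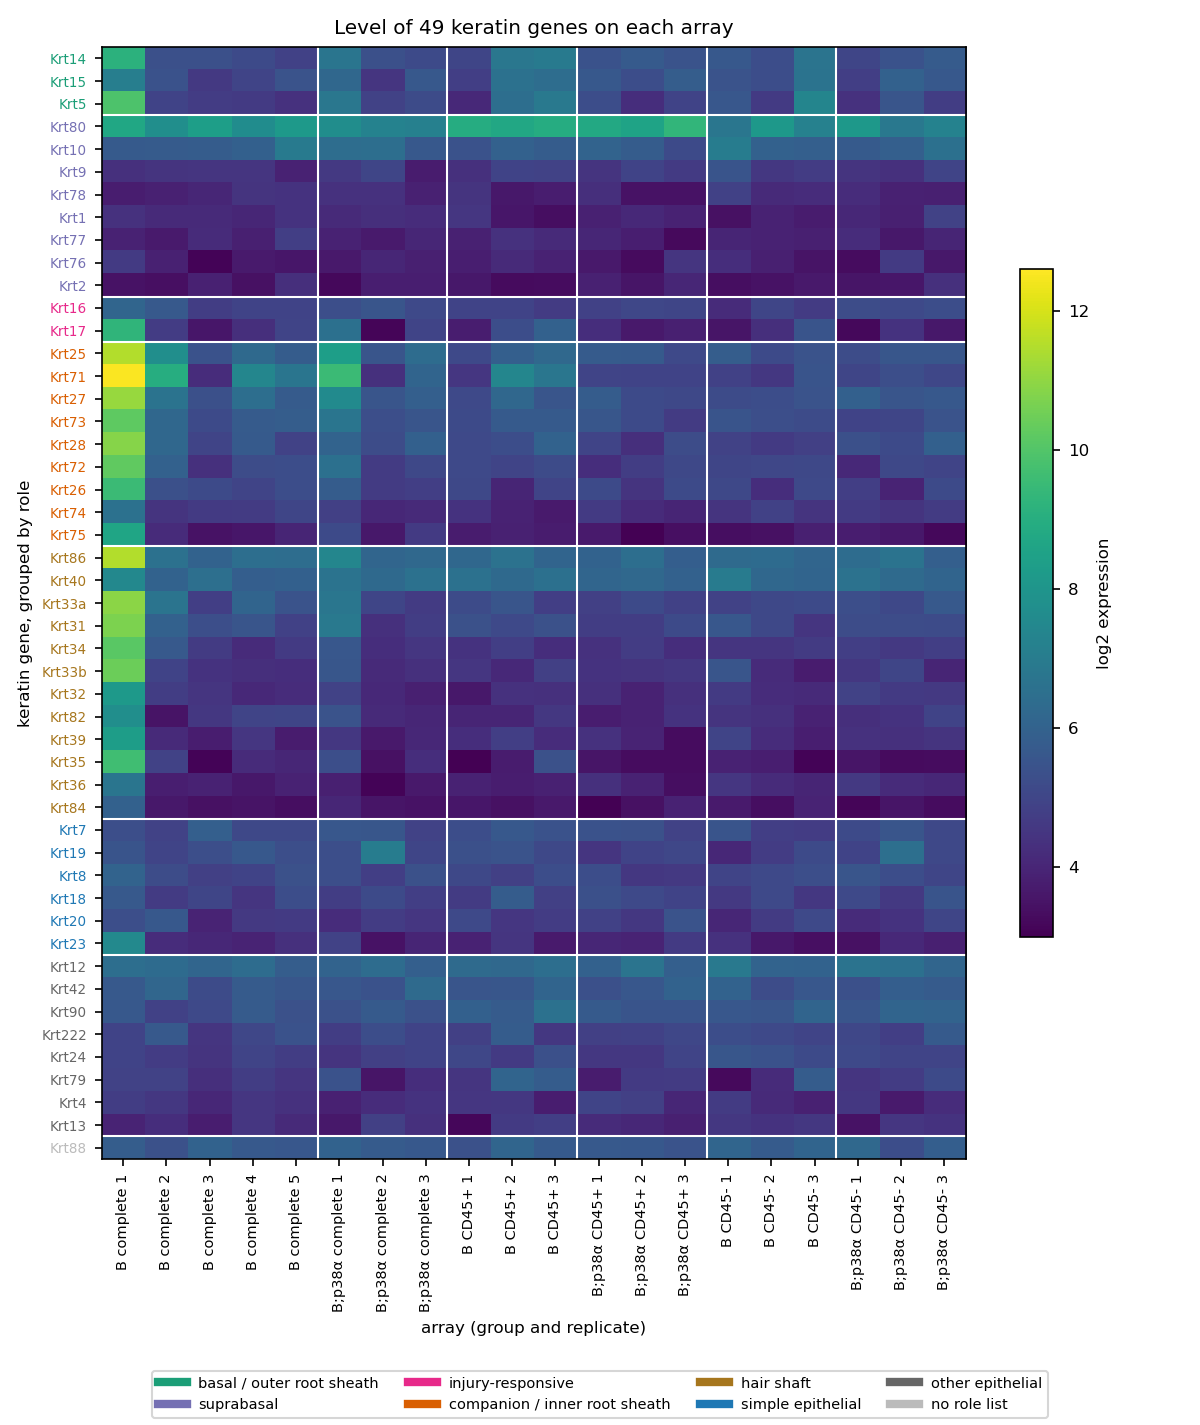
Log2 expression of the 49 keratins (vertical axis, grouped by role and coloured as in the key) on each of the 20 arrays (horizontal axis, by group and replicate). The first column, B complete replicate 1, is bright through the companion layer, inner root sheath and hair shaft blocks, and the suprabasal block shows no such column; colours compare arrays within a gene, since different probes have no common scale.

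The keratins of the companion layer and inner root sheath had a median range over the 20 arrays of 6.05, and of 2.16 without B complete replicate 1. The basal keratins had 4.29 and 2.16, and the injury-responsive keratins 4.05 and 2.46, so that the wider range of the inner root sheath group rested on that array. All 9 were highest in B complete replicate 1, 8 of them by at least 2. Krt71, the type II chain whose mutation gives curly coats, was 12.54, 9.00, 4.23, 7.40 and 6.72 in B complete replicates 1 to 5, and 9.53, 4.34 and 6.09 in the B;p38α complete replicates 1 to 3. In sorted cells Krt71 was 4.51, 7.41 and 6.76 in B CD45+, 4.96, 4.93 and 4.94 in B;p38α CD45+, 4.86, 4.54 and 5.50 in B CD45-, and 5.02, 5.30 and 5.03 in B;p38α CD45-. Complete tumors of both genotypes thus ran from about the sorted level up to far above it, and the groups overlapped. Krt25, a type I chain of the same sheath, was 11.50, 7.74, 5.41, 6.29 and 5.78 in B complete and 8.39, 5.52 and 6.40 in B;p38α complete, and between 5.11 and 6.23 in the 12 sorted samples. Among the complete tumors Krt25 was highest in the same arrays as Krt71, B complete replicates 1 and 2 and B;p38α complete replicate 1. The excess of B complete replicate 1 over the mean of the other 4 B complete arrays was 5.71 for Krt71, 5.41 for Krt28, 5.20 for Krt25, 5.06 for Krt27, 5.06 for Krt72, 4.81 for the companion layer keratin Krt75, 4.48 for Krt73 and 4.37 for Krt26. It was least, 1.88, for Krt74, the transcribed pseudogene. For 7 of the 9 the next highest array was B;p38α complete replicate 1.

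The 12 hair shaft keratins were likewise all highest in B complete replicate 1, 10 of them by at least 2. Krt31, a type I hair keratin of the cortex, was 10.72, 5.97, 5.30, 5.53 and 4.85 in B complete, 6.89, 4.35 and 4.76 in B;p38α complete and between 4.47 and 5.60 in the sorted samples. Krt33a was 10.93, 6.68, 4.79, 6.10 and 5.44 in B complete and 6.78, 5.02 and 4.69 in B;p38α complete. For both genes B complete replicate 1 stood well above every other array, followed by B;p38α complete replicate 1. Krt33b had the largest excess over the other B complete arrays of any keratin, 5.97, followed in this group by Krt35 (5.59), Krt34 (5.35), Krt31 (5.31), Krt33a (5.18) and Krt86 (5.13). Krt39 (4.31), Krt32 (3.78), Krt82 (3.22), Krt36 (2.95) and Krt84 (2.51) followed, and Krt40 had 1.39. Krt31, Krt33a, Krt33b and Krt34 are close paralogs, as are Krt86 and its neighbours, and the labels do not say how the probes split their transcripts, which leaves single members of these sets uncertain.

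Basal and outer root sheath keratins had a second set of high arrays, in part shared with other keratins. In B CD45+ replicates 2 and 3 and B CD45- replicate 3, Krt17 was 5.28, 5.98 and 5.48. Krt71 was 7.41, 6.76 and 5.50 there. Krt5, the type II chain of basal keratinocytes, was 9.91, 4.93, 4.70, 4.64 and 4.38 in B complete and 6.79, 4.89 and 5.21 in B;p38α complete. In sorted cells Krt5 was 4.11, 6.46 and 6.88 in B CD45+, 5.26, 4.27 and 4.94 in B;p38α CD45+, 5.59, 4.63 and 7.38 in B CD45-, and 4.38, 5.53 and 4.76 in B;p38α CD45-. The high sorted samples were B CD45+ replicates 2 and 3 and B CD45- replicate 3, so both CD45 fractions of B held high and low samples. Krt14, the partner of Krt5, was 9.15, 5.34, 5.34, 5.15 and 4.86 in B complete and 6.75, 5.35 and 5.17 in B;p38α complete. In B CD45+ it was 5.01, 6.81 and 6.93 and in B CD45- 5.64, 5.27 and 6.70, while the 6 sorted B;p38α samples lay between 4.99 and 5.76. The same samples were high as for Krt5. Krt15, a keratin of follicle stem cells, was 7.12 in B complete replicate 1. Its values of 6.57 and 6.44 in B CD45+ replicates 2 and 3, and of 6.64 in B CD45- replicate 3, came next.

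**Figure D2:**
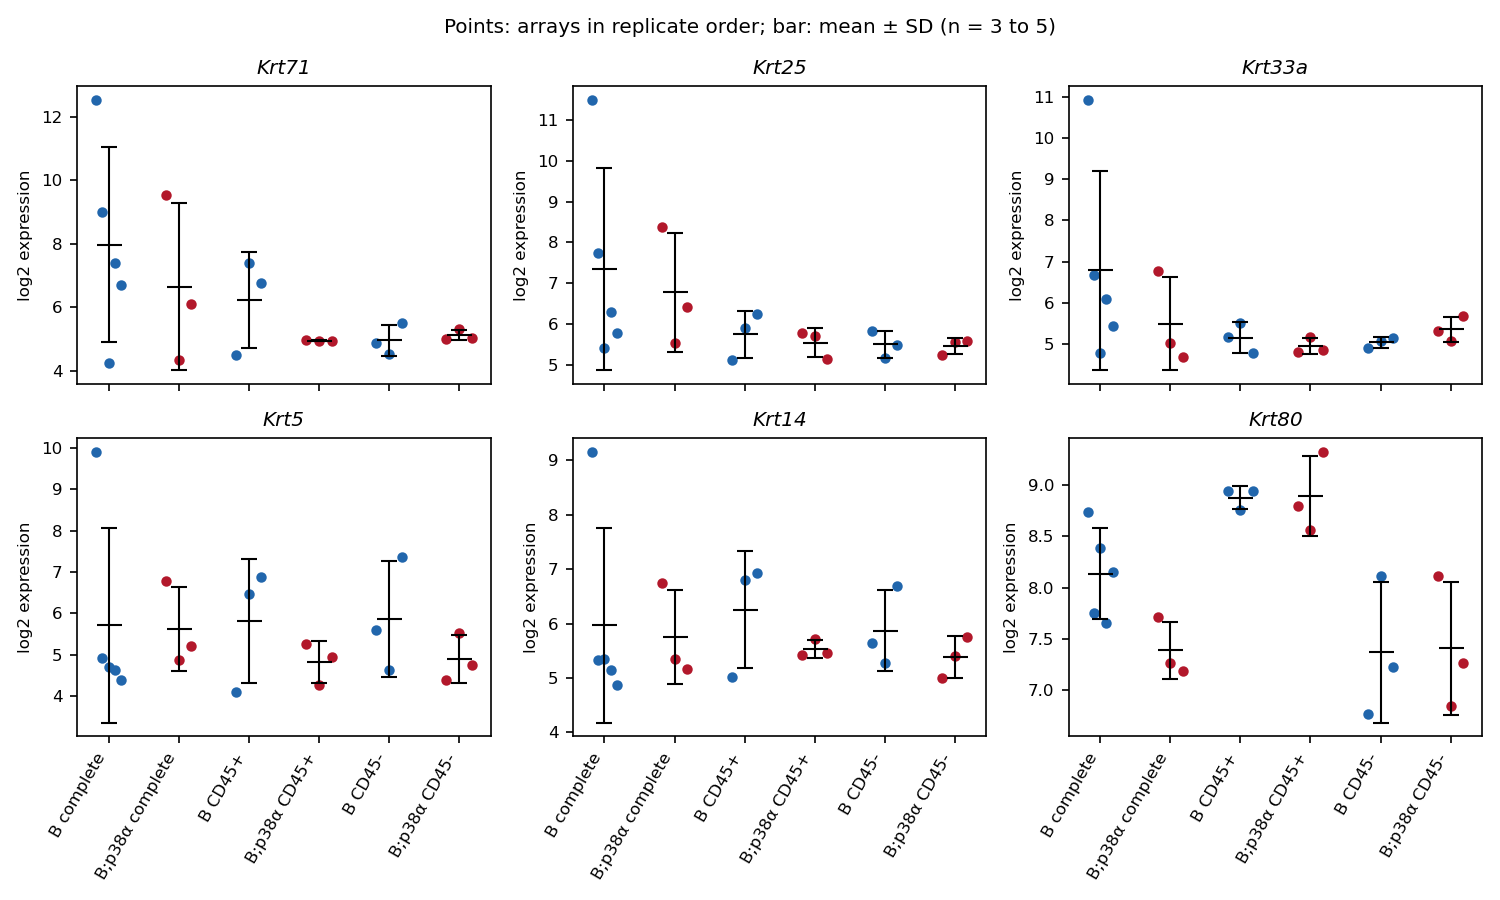
Log2 expression (vertical axis) of 6 keratins in the 6 groups (horizontal axis), with a point per array in replicate order and bars for the mean ± SD. B complete replicate 1 is the highest point for Krt71, Krt25, Krt33a, Krt5 and Krt14, whereas all 6 CD45+ points of Krt80 lie above all 6 CD45- points.

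The keratins of the suprabasal and cornifying list did not share this pattern. None of the 8 suprabasal members was highest in B complete replicate 1, and their median excess there was -0.10. Krt1 lay between 3.34 and 4.91 over all 20 arrays, and Krt2, made in the uppermost living layers, between 3.21 and 4.33. Both, like Krt9, Krt76, Krt77 and Krt78, were above the median gene on no array, so their flatness is that of low values. Krt10, the partner of Krt1, was 5.70 in B complete replicate 1, which was the lowest of the 5 B complete samples; it was 6.93 in replicate 5 and reached 7.03 in B CD45- replicate 1. Injury-responsive Krt17, which outer root sheath cells also make, was 9.29 in B complete replicate 1 and 6.55 in B;p38α complete replicate 1, and between 3.14 and 5.98 elsewhere. Krt16 was 6.14 in B complete replicate 1, only 0.45 above the next array.

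Among the 6 keratins of simple epithelia, Krt23 was 7.51 in B complete replicate 1 and at most 4.90 elsewhere. Krt8 was highest there too, at 6.07, but by 0.56. Krt18, the partner of Krt8, was highest in B CD45+ replicate 2 (5.81), and Krt19 in B;p38α complete replicate 2 (7.04) and B;p38α CD45- replicate 2 (6.51). None of the 8 keratins of other epithelia was highest in B complete replicate 1; Krt79, of the follicle opening and sebaceous duct, was highest in B CD45+ cells, at 6.11 in replicate 2 and 5.80 in replicate 3, and then in B CD45- replicate 3 (5.79).

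Type I and type II partners were compared by the arrays in which they were high, for the 8 of 10 listed pairs with both chains measured. Krt14 and Krt5, Krt17 and Krt75, and Krt27 and Krt71 were all highest in B complete replicate 1, with excesses of 3.98 and 5.25, 4.90 and 4.81, and 5.06 and 5.71. In every other measured pair the partners were highest in different arrays. Of these, Krt10 and Krt1 had excesses of -0.40 and 0.16, Krt10 and Krt2 -0.40 and -0.31, and Krt13 and Krt4, partners in internal stratified epithelia, -0.23 and 0.35. Krt18 and Krt8 had 0.84 and 0.98, and Krt19 and Krt8 0.21 and 0.98. The partners lie on different chromosomes, and along each chromosome many of the keratins with an excess stood in blocks, as the plot in gene order shows. Krt14 and Krt17 stood outside the long runs of chromosome 11.

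**Figure D3:**
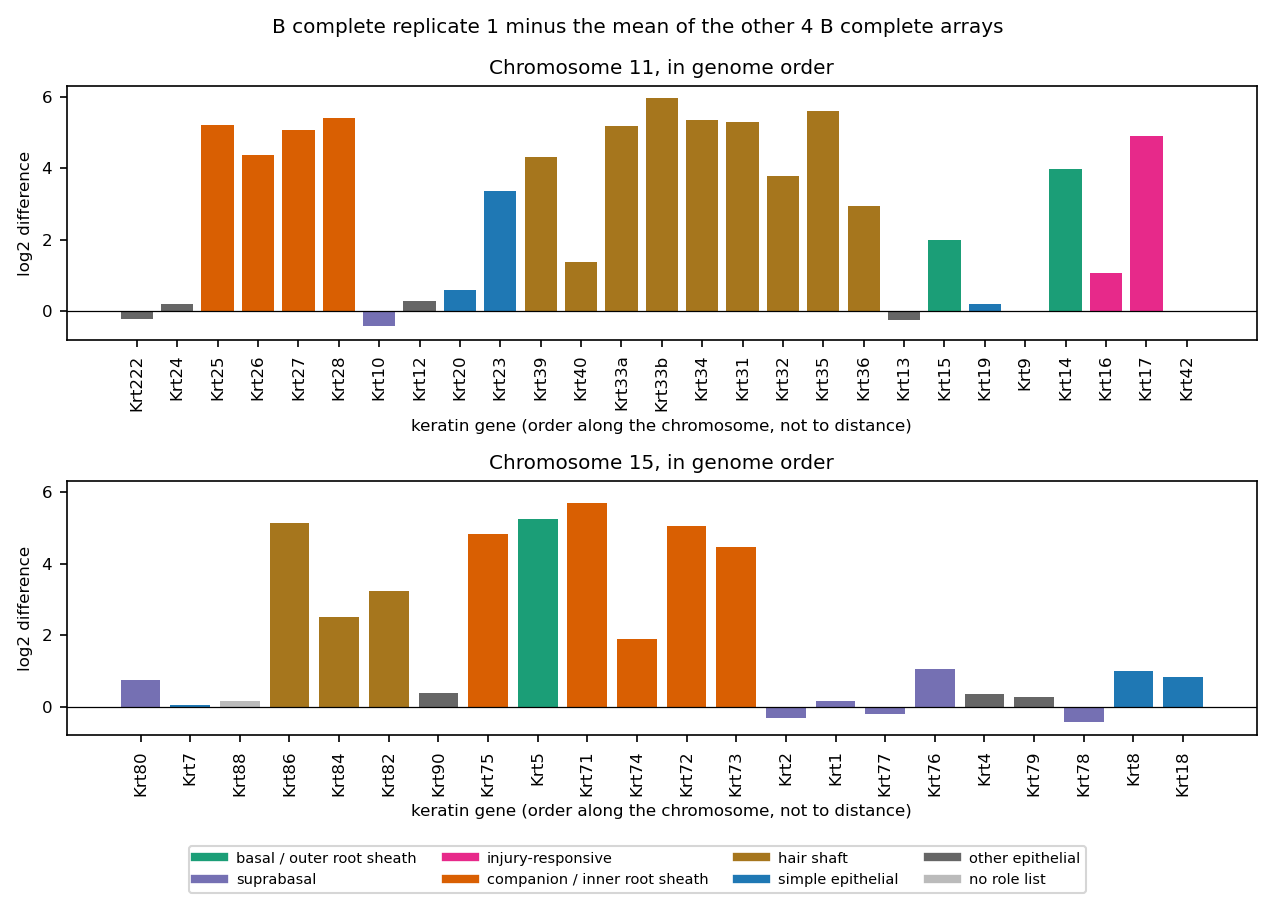
Excess of B complete replicate 1 over the mean of the other 4 B complete arrays (vertical axis, log2 difference) for keratins in their order along chromosome 11 and chromosome 15 (horizontal axis, not to distance), coloured by role. On chromosome 11 tall bars form a run from Krt25 to Krt28 and another from Krt23 to Krt36 (Krt40 shorter). Krt14 (3.98) and Krt17 (4.90) stand outside these runs. On chromosome 15 bars are tall for Krt86 and from Krt75 to Krt73, with Krt74 shorter. Krt84 (2.51) and Krt82 (3.22) lie between Krt86 and Krt75. The tallest suprabasal bar is that of Krt76, at 1.05.

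Other genes of hair and epidermis were high in the same array. Of 50 keratin-associated protein genes, whose products crosslink hair keratins, 47 were highest in B complete replicate 1 and 37 of them by at least 2. Krtap7-1 was 12.91, 8.33, 4.49, 6.15 and 6.25 in B complete and 9.58, 5.00 and 4.80 in B;p38α complete. Tchh, trichohyalin of the inner root sheath, was 10.82, 6.10, 2.93, 4.49 and 5.60 in B complete and 7.90, 2.15 and 4.42 in B;p38α complete. Both rank the complete tumors much as Krt71 does, with B;p38α complete replicate 1 and B complete replicate 2 next. Of 33 epidermal and desmosome genes 22 were highest in B complete replicate 1, among them Trp63, the regulator of basal keratinocytes (8.71, other arrays at most 6.92), the desmosome proteins Dsp (9.23, at most 6.76) and Perp (10.43, at most 7.47). Involucrin, Ivl, of the cornified envelope was 8.83 there and at most 5.38 elsewhere. Lor at 5.17 and Krtdap at 4.27, both made late in epidermal differentiation, lay inside their range elsewhere.

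Markers of other cell types in B complete replicate 1 were counted in the same way. Of 23 hair follicle genes 13 were highest in it (56.5%), and of 15 melanocyte genes 8 (53.3%), beside 5.14% of all genes. None of these 8 melanocyte genes was highest by as much as 2. By at least 1 it was 6 of them, beside 223 of all 19504 genes. No member of the lists of 12 leukocyte, 13 fibroblast and 17 skeletal muscle genes was highest in it. Skeletal muscle RNA was abundant in complete tumors of B, where the mean over the list ran from 9.41 to 10.09 per array, from 5.44 to 10.29 in complete tumors of B;p38α, and from 5.17 to 5.71 in the sorted B samples. In bulk RNA, fewer cells of a type and less RNA per cell cannot be told apart, and the part of skin or follicles taken with a tumor in these values was not tested.

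**Figure D4:**
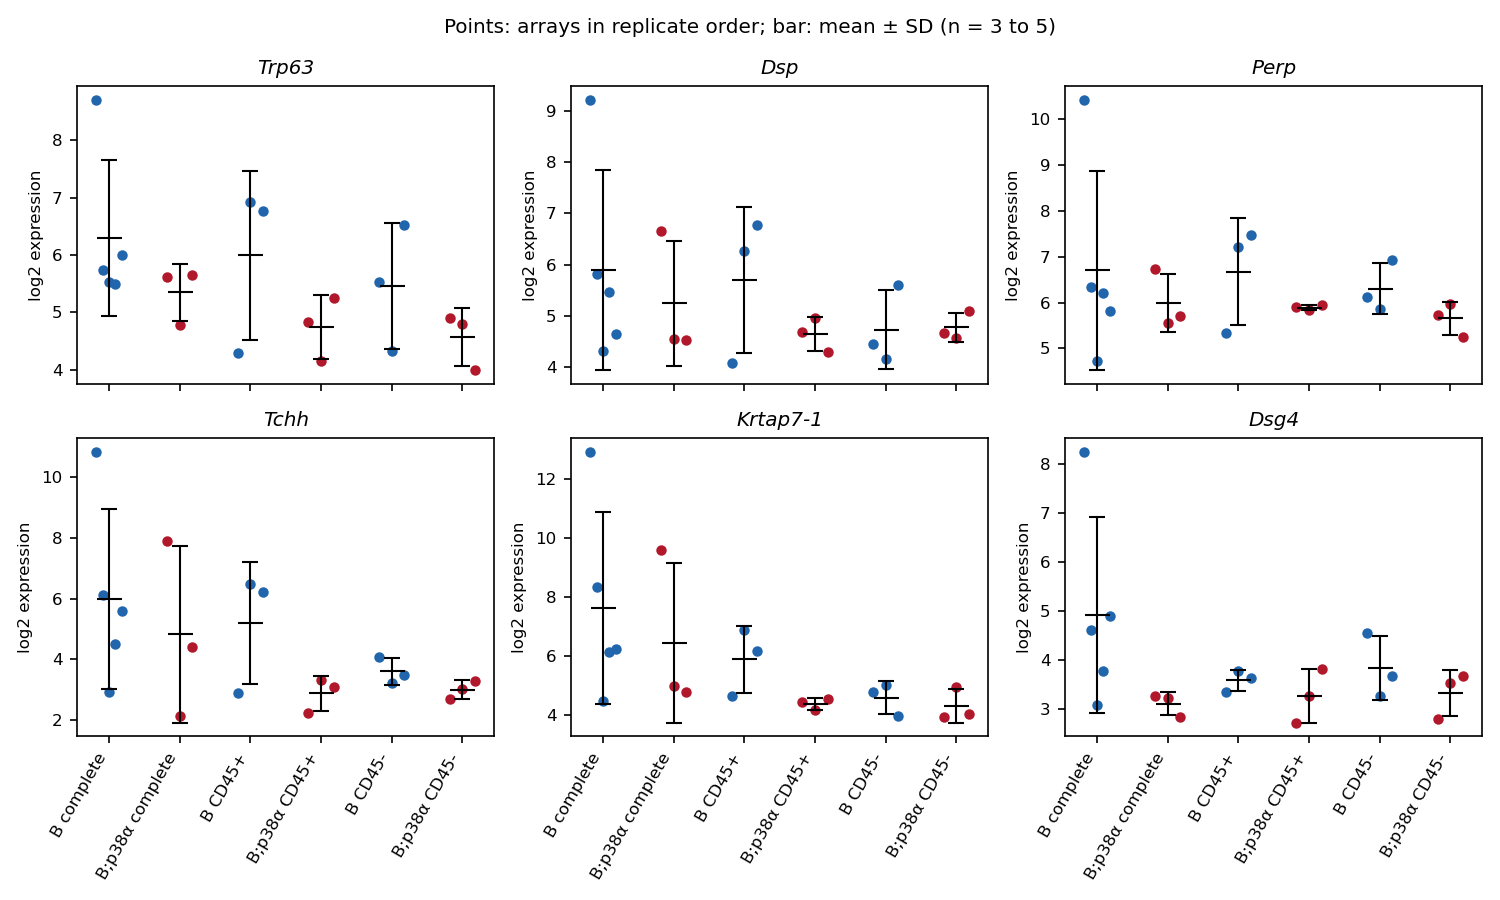
Log2 expression (vertical axis) of 6 epidermal and hair genes that are no keratins in the 6 groups (horizontal axis), with a point per array in replicate order and bars for the mean ± SD. B complete replicate 1 is highest in all 6 panels, and Trp63, Dsp, Perp and Tchh are also high in B CD45+ replicates 2 and 3.

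The first comparison of the design asked how p38α deletion changed complete tumors. In the limma fit, 0 of 49 keratins passed at an adjusted p under 0.05, as did 0 of all 19504 genes (0%). At an unadjusted p under 0.05, 1 keratin (2.04%) and 1289 genes (6.61%) were found. The keratin was Krt80, at -0.75 (SE 0.26, adjusted p = 0.733). The largest keratin differences, B;p38α minus B, were Krt71 at -1.32 (SE 1.67, adjusted p = 0.922), Krt33a at -1.29, Krt31 at -1.14, Krt34 at -1.08, Krt33b at -0.99, Krt26 at -0.98, and Krt32 and Krt36 both at -0.87. Their standard errors, 0.64 to 1.67, were of the size of the differences. The median keratin difference was -0.28, with 37 of 49 members negative, beside -0.01 over all genes. All 9 companion layer and inner root sheath keratins and 11 of 12 hair shaft keratins were negative, at medians of -0.79 and -0.86. Markers of other tissue had values in the same direction: all 17 skeletal muscle genes were negative (median -1.81) and so were all 11 adipocyte genes (median -1.05), none of them past the threshold. Their part in the keratin values was not tested.

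These negative values rested on B complete replicate 1. Without it the median keratin difference was 0.09 and 17 of 49 members were negative. Krt71 went to -0.18, Krt33a to -0.25, Krt31 to -0.08, and Krt33b changed sign to 0.21. The hair shaft median became 0.05, and that of the inner root sheath group 0.22. The 50 keratin-associated genes had a median of -0.59 with the array and 0.20 without it, while the muscle and adipocyte lists stayed negative throughout, at medians of -1.91 and -0.95. The largest keratin difference without it was Krt5 at 0.96 (SE 0.40), which also did not pass (limma, adjusted p = 0.764). That fit kept B;p38α complete replicate 1, where Krt5 was 6.79, beside 4.89 and 5.21 in replicates 2 and 3. With B complete replicate 1 set aside, B;p38α complete replicate 1 was the highest array for 16 of 49 keratins. Its part in the positive values was not tested.

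In CD45+ cells the question was whether p38α deletion in melanocytes changed the immune fraction. Again 0 of 49 keratins and 0 of all genes (0%) passed in limma. At an unadjusted p under 0.05 there were 1 keratin (2.04%) and 2101 genes (10.8%). That keratin was Krt79, at -1.12 (SE 0.46, adjusted p = 0.457). Krt71 differed by -1.28, Krt17 by -1.09, Krt5 by -0.99, Krt14 by -0.72, Krt28 and Krt35 both by -0.62 and Krt39 by -0.55, all short of the threshold. For Krt71, Krt17, Krt5, Krt14 and Krt79 these values came from B replicates 2 and 3, while B replicate 1 lay within or below the range of the B;p38α samples. In 4 keratins (Krt19, Krt40, Krt75 and Krt90) all 3 B;p38α samples lay below all 3 B samples, which is 8.16% of the members against 7.35% of all genes. The median over the family was -0.19, beside 0.004 over all genes. With weights for array quality 16 keratins passed (32.7%), among them Krt71 at -1.75 (limma, adjusted p = 0.0125), but 5303 of all genes did too (27.2%), so the share of keratins was near that of all genes. The epidermal genes Trp63 (-1.24) and Dsp (-1.06) and the sheath gene Tchh (-2.31) had values in the same direction, none past the threshold.

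In CD45- cells, which hold tumor and stroma, 0 of 49 keratins passed in limma, and 2 of all genes did (0.0103%). At an unadjusted p under 0.05 there were 1 keratin (2.04%) and 1319 genes (6.76%). This was Krt28, at 0.71 (SE 0.26, adjusted p = 0.675), with 5.36, 5.17 and 5.93 in B;p38α above 4.88, 4.63 and 4.82 in B. Krt16 (0.59) and Krt27 (0.39) were the other keratins whose groups did not overlap upward, so that 3 members (6.12%) stood beside 10.6% of all genes. Krt24 was the only member whose groups did not overlap downward (2.04%, all genes 5.36%). Krt5 at -0.97, Krt19 at 0.87, Krt17 at -0.69, Krt1 at 0.58, Krt14 at -0.48 and Krt78 at -0.43 did not pass. The family median was 0.03, beside 0.05 over all genes.

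Setting CD45+ against CD45- cells, with both genotypes weighted equally, gave 1 keratin past the threshold. Krt80 was higher in CD45+ cells by 1.50 (SE 0.27, limma adjusted p = 0.00339), with means of 8.89 and 7.39. Its values were 8.94, 8.75 and 8.94 in B CD45+, 8.80, 8.56 and 9.32 in B;p38α CD45+, 6.77, 8.11 and 7.22 in B CD45-, and 8.11, 6.84 and 7.27 in B;p38α CD45-. All 6 CD45+ samples lay above all 6 CD45- samples, and 5.78% of all genes did so. Krt80 is a type II keratin of cells that enter terminal differentiation, and its gene lies at the edge of the chromosome 15 cluster. It was 1 of 49 keratins that passed (2.04%), while 2372 genes did (12.2%), 1520 of them upward (7.79%). At an unadjusted p under 0.05 the counts were 3 keratins and 4730 genes (24.3%). Leaving out each array in turn kept the difference of Krt80 between 1.35 and 1.68. Krt71 at 0.54, Krt10 at -0.47, Krt74 at -0.45, Krt36 at -0.39, Krt17 at 0.37, and Krt24 and Krt32 both at -0.36 did not pass. Without B CD45+ replicate 1, Krt71 differed by 0.97 and passed (limma, adjusted p = 0.00947). The share of all genes that passed in that fit is not given here, so this call cannot be set beside it.

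Few genes of the epidermal and desmosome list passed in this comparison, 2 of 33 (6.06%) beside 12.2% of all genes. Cdh1, E-cadherin, was higher in CD45+ cells by 2.11 (SE 0.23, limma adjusted p = 0.000128), and Tgm1, the transglutaminase of the cornified envelope, by 1.00 (limma, adjusted p = 0.0230). The list had a median of 0.08, beside -0.08 over all genes. All 12 leukocyte genes rose in CD45+ cells (median 2.79), as did 2 of 15 melanocyte genes while 1 fell. The leukocyte list still had a mean of 8.52 in B CD45- and 7.17 in B;p38α CD45- cells, beside 9.02 in B complete tumors. The fibroblast list had means of 10.22 and 10.38 in B and B;p38α CD45+ cells, and of 10.70 and 10.82 in CD45- cells. Each fraction thus carried signal of the other, and a keratin difference does not place its RNA in a cell type. The defining keratinocyte keratins Krt5, Krt14 and Krt15 had differences between -0.06 and 0.27, none past the threshold. The part of leukocytes or of keratinocytes in the level of Krt80 was not tested.

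Both sorted fractions were then set against complete tumors. In CD45+ cells Krt80 was higher than in complete tumors by 1.12 (SE 0.19, limma adjusted p = 0.000553), and by 1.20 without B complete replicate 1. Its levels in complete tumors were 8.73, 7.75, 8.38, 7.65 and 8.15 in B and 7.71, 7.27 and 7.19 in B;p38α. B complete replicate 1 thus lay within the range of the CD45+ samples and the other 7 below them. It was the 1 keratin that passed (2.04%), beside 5645 genes (28.9%), and without B CD45+ replicate 1 there were 2. The share of all genes in that last fit is not given here. The inner root sheath keratins Krt71 (-1.73), Krt25 (-1.42) and Krt27 (-1.22), the hair keratins Krt33a (-1.09) and Krt35 (-1.04), and Krt75 (-1.05) and Krt28 (-0.99) did not pass. All 12 hair shaft and all 9 companion layer and inner root sheath keratins had negative values, against a median of -0.003 over all genes. Without B complete replicate 1 these values shrank, to -1.16 for Krt71, -0.90 for Krt25, -0.71 for Krt27, -0.57 for Krt33a, -0.48 for Krt35, -0.57 for Krt75 and -0.45 for Krt28. The hair shaft median then went from -0.72 to -0.23, with 9 of 12 members negative, and that of the inner root sheath group from -0.99 to -0.46, with 9 of 9. Of the epidermal list 2 of 33 genes passed (6.06%), fewer than the 28.9% of all genes, namely Cdh1 (1.91) and Jup (1.00), the junction protein plakoglobin. Without that array 5 did (15.2%, all genes 27.0%). Of the follicle list 2 of 23 passed (8.70%), Sox9 upward (1.06) and Nkd2, which fell by 0.71. All 17 skeletal muscle genes fell in CD45+ cells against complete tumors (median -3.73), and their part in the keratin values was not tested.

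Krt24 was the keratin that passed in CD45- cells against complete tumors. It was higher by 0.46 (SE 0.13, limma adjusted p = 0.0428), with 5.58, 5.40 and 5.17 in B CD45- and 5.13, 4.98 and 4.97 in B;p38α CD45-. In complete tumors it was 4.92, 4.71, 4.45, 4.95 and 4.74 in B and 4.43, 4.82 and 4.94 in B;p38α. Each CD45- sample lay above each complete tumor, by little (all genes 1.46%), and Krt24 was above the median gene on no array. The call was lost without any 1 of 13 of the 14 arrays, B complete replicate 1 among them (adjusted p = 0.0534), so it stands at the threshold. It was 1 of 49 keratins (2.04%), beside 1703 genes (8.73%). Krt71 at -2.27 (SE 1.08, adjusted p = 0.197), Krt25 at -1.58, Krt35 at -1.26, Krt27 at -1.20, Krt75 at -1.09, Krt17 at -1.03 and Krt28 at -1.01 did not pass. Without B complete replicate 1 these shrank to -1.70 for Krt71, -1.06 for Krt25 and -0.70 for Krt27, and the hair keratin Krt36 passed instead (0.59, adjusted p = 0.0459), beside 6.32% of all genes. Of 23 follicle genes only Sox9, a regulator of follicle stem cells, passed with all arrays, higher in CD45- cells by 1.80.

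**Figure D5:**
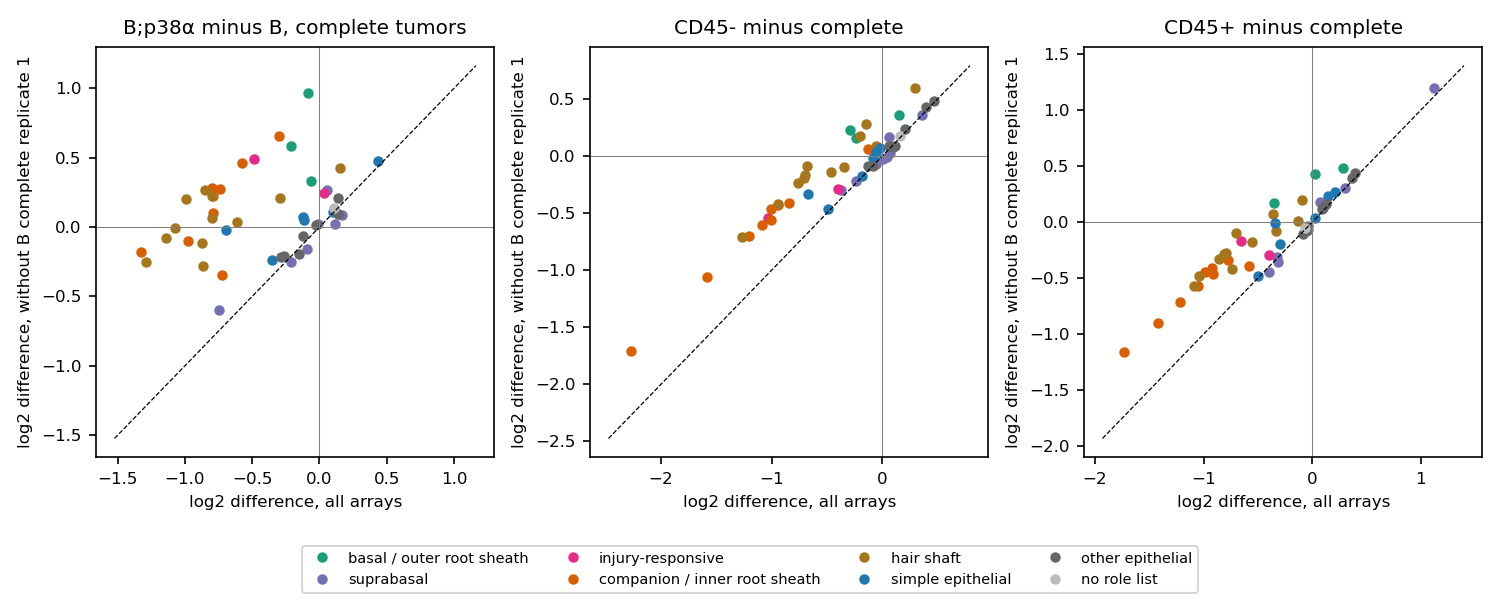
Log2 difference of each of the 49 keratins with all arrays (horizontal axis) against the same difference without B complete replicate 1 (vertical axis), in 3 comparisons and coloured by role. The dashed line marks equal values; inner root sheath and hair shaft keratins lie above it in all 3 panels, and Krt80 is the point at the upper right of the CD45+ panel.

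Whether a genotype difference differed between compartments was tested with interaction terms, the B;p38α minus B difference in the first compartment less that in the second. In limma, 0 of 49 keratins and 0 of all genes (0%) passed for each of the 3 pairs of compartments. At an unadjusted p under 0.05, CD45+ against CD45- gave 2 keratins and 380 genes (1.95%), CD45- against complete tumors 0 keratins and 1582 genes (8.11%), and CD45+ against complete tumors 0 keratins and 1862 genes (9.55%). The 2 keratins were Krt28 at -1.33 (SE 0.43) and Krt19 at -1.33 (SE 0.56). The largest value in that comparison was Krt79 at -1.51, followed by Krt71 at -1.43. Krt33a had the largest value for CD45- against complete tumors, 1.60 (SE 1.53), and 0.56 without B complete replicate 1. For CD45+ against complete tumors it was Krt26 at 1.22 (SE 1.23), and 0.35 without that array. The largest values without it were those of Krt5 in both comparisons, -1.94 (SE 0.84) for CD45- and -1.96 (SE 0.85) for CD45+, neither past the threshold. The median interaction of the family for CD45- against complete tumors was 0.43 with that array and 0.012 without it, and for CD45+ against complete tumors 0.15 and -0.28.

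Among the 12 sorted samples, each keratin was assigned to the array in which it was highest. B CD45+ replicate 2 held 10 of 49 keratins (20.4%, all genes 6.34%) and B CD45+ replicate 3 held 9 (18.4%, all genes 5.53%). B CD45- replicate 1 also held 9, where all genes stood at 19.5%. Of the companion layer and inner root sheath keratins, 4 were highest in B CD45+ replicate 2 and 3 in replicate 3. Each of these 2 arrays also held 5 of the 17 skeletal muscle genes, and replicate 3 held 8 of the 33 epidermal genes. The keratin-associated genes went to another array, B CD45- replicate 1, which held 33 of 50 (66%) beside 19.5% of all genes. It also held 4 of 12 hair shaft keratins (33.3%) and 7 of 23 follicle genes (30.4%). Its 7 of 33 epidermal genes (21.2%) were near the share of all genes, and it held 0 of 9 companion layer and inner root sheath keratins. That array is the one with the narrowest spread of values, and the part of this in its counts was not tested. Perp was 5.34, 7.21 and 7.47 and Dsp 4.08, 6.27 and 6.76 in B CD45+ replicates 1 to 3. In these 3 arrays Perp and Dsp, 2 genes picked from the list of 33, were low and high where Krt5 and Krt14 were. B CD45- replicate 3, also high for Krt5 and Krt14, held 0 of the 33 epidermal genes. That count shows only where each gene was highest, so it cannot say whether the list as a whole followed Krt5 and Krt14. The part of keratinocytes kept in the CD45+ samples was not tested.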

How the data were processed

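The authors deposited log2 expression values for 20 arrays. The processing notes of the submitters name RMA, a method that corrects background, normalizes across arrays and summarizes probes; no version is named, and no source used here says which arrays shared a run. Values ran from 1.31 to 14.15 over 21244 table rows, with 0 missing. The platform annotation gave 1 symbol for 19570 rows, several for 0 and none for 1674, which are unnamed here. The row of highest mean was kept per symbol, leaving out 66 rows. The array's genome build is not named, and coordinates, gene order and sequences are those of RefSeq on GRCm38.p6, matched by Entrez gene ID.

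Groups came from the sample labels. Differences on the log2 scale were fitted over all 19504 genes in R 4.3.3 with limma 3.58.1 (lmFit, then eBayes). The threshold was 0.05 on p-values adjusted by Benjamini-Hochberg over that whole table. Genotypes were compared within a compartment, and compartments over 4 groups with equal weight for each genotype. The labels do not say whether same-numbered samples share a tumor, and the main fits did not pair them. Same-numbered arrays of the 2 genotypes had correlated deviations over 0.1 in 2 of 9 pairs, and those of 2 compartments in 7 of 18. Between CD45+ and CD45- cells the correlations were -0.47, -0.57 and 0.36 for B replicates 1 to 3, and 0.30, -0.11 and 0.35 for B;p38α. With so few arrays per group these values cannot settle whether the samples are paired. Members, role lists and tests were chosen with earlier results of these data known. The text names in each comparison the members that passed, filled up to 8 with the largest differences, and from each role 2 to 4 of the highest level or widest range; further members and other genes, chosen after their values were seen, are named where a count or an array turns on them. Scripts were tested on simulated data. Each array was left out in turn, and further alternatives were a fit of all 6 groups, a replicate block, a filter at the 30th percentile of mean level, array weights, another quantile normalization, every row, and a trended robust variance. Figures used matplotlib 3.10.9 in Python 3.11.15.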

Additional observations from a re-analysis of the deposited data

Results flagged for a closer look

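With 5 samples in the group B complete, each of the 49 keratins was checked for a highest or lowest sample whose gap to the nearest other took an unusually large share of the group's range. This check marks about 1 in 20 groups by chance. It marked 22 keratins, 20 of them for a high value in B complete replicate 1. On the log2 scale these were Krt14 (9.15), Krt17 (9.29), Krt23 (7.51), Krt26 (9.56), Krt27 (11.12), Krt28 (10.87), Krt31 (10.72), Krt32 (8.17), Krt33b (10.45), Krt34 (10.14), Krt35 (9.65), Krt36 (6.75), Krt39 (8.35), Krt5 (9.91), Krt72 (10.26), Krt73 (10.22), Krt74 (6.58), Krt75 (8.63), Krt84 (5.99) and Krt86 (11.50). They include the basal pair Krt5 and Krt14, 7 of the 9 companion layer and inner root sheath keratins and 9 of the 12 hair shaft keratins. The other 2 were in B complete replicate 5, a high value of Krt10 (6.93) and a low value of Krt9 (3.93), both keratins of differentiating epidermis. The keratins of 1 tissue sample are not independent of each other, so the 20 values are a single event of 1 array. Groups of 3 samples were not checked.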

How the results depend on the processing

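Of 791 repeated values of the keratins named in a comparison, 764 kept their direction and their side of the threshold. Krt80 kept both of its calls under every alternative run, at 1.35 to 1.68 against CD45- cells and 1.02 to 1.21 against complete tumors when single arrays were left out. Krt33b in complete tumors changed sign, with a range of -1.44 to 0.21, and so did Krt35 in CD45+ cells, from -1.17 to 0.063. The replicate number as a block gave 27 genes for the genotype in complete tumors, 184 genes and 0 keratins for CD45- cells against complete tumors and 25 genes for the interaction of CD45+ with complete tumors; it changed no other keratin count. Array weights gave 5303 genes and 16 keratins for the genotype in CD45+ cells, 4 genes in CD45- cells, 4275 genes and 2 keratins for CD45+ against CD45- cells, 2800 genes for CD45- cells against complete tumors, 4 keratins (8.16%) beside 7753 genes (39.8%) for CD45+ cells against complete tumors and 532 genes for their interaction. All 6 groups in a single fit gave 2 genes for the genotype in CD45+ and 0 in CD45- cells. Leaving out dim genes gave 7 genes and a median keratin difference of -0.32 in CD45+ cells, a trended variance gave 5 genes there, and quantile normalization moved the median in CD45- cells to 0.20. The Krt24 call was lost, leaving 0 keratins, under the dim filter, which removed the gene, quantile normalization and the trended variance. Where no cause is given, the cause was not tested. Leaving out each array in turn gave 0 to 49 genes for the genotype in complete tumors (49 without B complete replicate 4), 0 to 30 in CD45+ and 0 to 4 in CD45- cells, with 0 keratins in each. For CD45+ against CD45- cells it gave 1 to 2 keratins, for CD45- cells against complete tumors 712 to 2073 genes and 0 to 1 keratins, and for CD45+ cells against complete tumors 1 to 2 keratins. The counts of all genes beside the ranges of 1 to 2 keratins are not given here. Genes with an interaction numbered 0 to 1 for CD45+ against CD45- cells, where the median keratin value ran from -0.35 to -0.10, 0 to 10 for CD45- cells against complete tumors and 0 to 49 for CD45+ cells against them.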
